A study of Homo sapiens with 6 samples.

Results

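The genes described here are 34 targets of the tumour suppressor p53 and genes of the DNA damage response, named by symbol, of which 31 had a row in the table of 14821 genes. FAS, PHLDA3 and TIGAR were not analysed here. RNA was sequenced from F36P, an established human erythroleukaemia cell line, in 3 libraries of cells transduced with a murine stem cell virus vector (MSCV-PIG) that expresses ERG, an ETS family transcription factor, and in 3 libraries of cells with the same vector without ERG. All 6 had been kept in 1 µg/ml puromycin for 4 days before RNA was taken, so the vector cells carry the virus and its selection too. The question the submitters stated is how ERG holds back red cell differentiation.

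The protein p53 is made continuously and destroyed continuously, mainly by the ubiquitin ligase MDM2 with its partner MDM4. When DNA breaks, the kinases ATM and ATR, with CHEK2 and CHEK1 downstream, modify p53 and loosen that hold. The factor then switches on genes for cell cycle arrest (CDKN1A), repair (DDB2, XPC), death (BBC3, BAX) and its own removal (MDM2). In blood progenitors this network sets how many cells survive stress. Several of its death and stress genes can also be switched on without p53 by ATF4 and CHOP, the factors of the integrated stress response.

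Library totals lay between 10257141 and 14803031 counts, and levels are given as CPM, the count of a gene over the library total scaled by edgeR's TMM factor. ERG stood at 97.4, 103 and 104 CPM with the ERG virus, against 28.1, 14.6 and 22.4 CPM with vector (log2 fold change 2.23, SE 0.23, edgeR adjusted p = 0.011). ERG kept its direction without any 1 library, at log2 2.01 to 2.46, but missed the threshold in 3 of these fits. The edgeR adjusted p was 0.0716 when ERG replicate 1 was left out, 0.0729 when ERG replicate 2 was, and 0.0544 when vector replicate 3 was. In that order, these fits called 0, 0 and 51 of all 14203 tested genes, so few genes of any kind passed in them. The red cell genes HBG2, EPOR, KLF1 and GATA1 were all at 139 CPM or more in every library. The libraries also fell into 2 sets that cut across the groups, found by clustering and named set A (ERG replicates 1 and 2 with vector replicate 1) and set B (ERG replicate 3 with vector replicates 2 and 3). ERG replicates 1 and 2 lay far closer to each other than any other pair, with a chi-square of 2.20 per degree of freedom against 21.6 to 86.9 for the 14 others. The labels call the replicates biological without naming separate cultures, and p-values therefore measure only the spread among these libraries, which may be technical.

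With ERG, 1 of the 31 genes rose and 0 fell at an edgeR adjusted p under 0.05. Among all 14203 genes tested, 2.2% were called, 1.47% as higher and 0.732% as lower, and 1 of 31 is 3.23%, a share near that background. At an unadjusted p under 0.05 it was 3 of 31, or 9.68%, against 15.9% of all tested genes. Their median log2 fold change was 0.03, against -0.01 over all tested genes, with 17 positive and 14 negative values. The gene that rose was PLK3, a stress-responsive kinase. By DESeq2 2 of the 31 passed (6.45%), PLK3 as higher and BTG2 as lower, where 7.08% of all genes did. PLK3 and BTG2 also passed with the replicate number as a block, where 6.37% of all did. With a term for the library sets described above 5 of 31 (16.1%) passed, against 13.2% of all tested genes. MDM2 did not pass the test, and its levels in ERG libraries overlapped those in vector libraries.

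**Figure D1:**
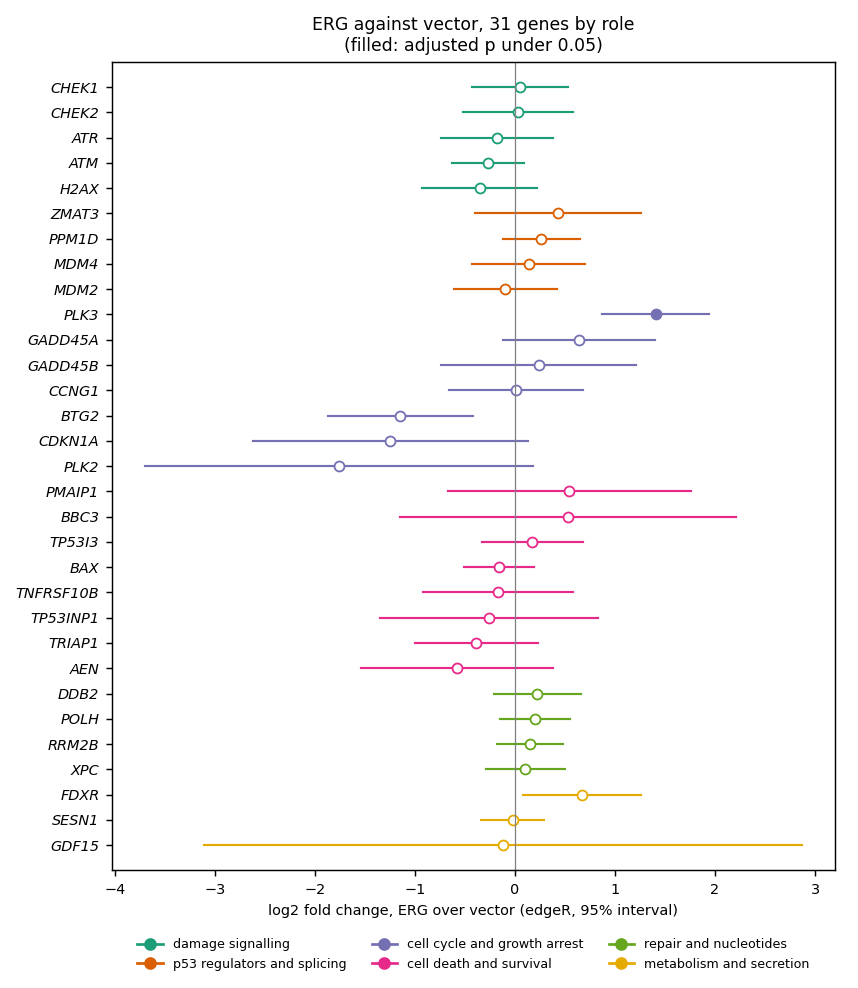
Log2 fold change of ERG over vector with its 95% interval from edgeR for each of the 31 genes, coloured and grouped by role, filled where the adjusted p was under 0.05. PLK3 is the filled point, at 1.41, and the widest interval, that of GDF15, runs from -3.11 to 2.87.

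Among the genes that sense and relay damage, 0 of 5 passed. H2AX, the histone variant that is phosphorylated around breaks, had 276, 266 and 428 CPM in ERG libraries and 314, 439 and 484 CPM in vector libraries. ERG replicates 1 and 2 were lowest and the groups overlapped (log2 -0.35, SE 0.25, edgeR adjusted p = 0.531). Per kilobase of merged exons H2AX was the highest of the 31 genes, at 200.2 CPM per kilobase with ERG and 255 with vector. ATM, the kinase that answers double-strand breaks, had 70.0, 79.3 and 62.7 CPM in ERG libraries against 92.3, 72.5 and 91.4 CPM in vector libraries. The difference of -0.27 on the log2 scale had a 95% interval of -0.63 to 0.09 (edgeR adjusted p = 0.442). ATR, which answers stalled replication, and the effector kinases CHEK1 and CHEK2 had log2 differences of -0.18, 0.05 and 0.03, with 95% intervals inside -0.74 to 0.58. ATM and ATR stood at 2.95 and 1.77 CPM per kilobase in ERG cells and at 3.56 and 2.01 in vector cells. CHEK1 and CHEK2 were higher per kilobase, at 13.4 and 10.8 in ERG cells and 12.995 and 10.6 in vector cells. CHEK2 has pseudogene copies and a reverse-strand neighbour, HSCB, over 6.7% of its exons, and the pseudogene EIF2AK1P1 lies on the reverse strand of 16.4% of the exon bases of ATR, so the counts of both are less certain.

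Of the 4 regulators of p53 and of splicing, 0 passed. MDM2 had 67.8, 65.3 and 91.6 CPM in ERG libraries and 59.5, 98.8 and 82.2 CPM in vector libraries (log2 -0.10, SE 0.22, 95% interval -0.61 to 0.42, edgeR adjusted p = 0.85). In each group the lowest values were those of set A. Other genes, 1 of them on the same strand, overlap 10.2% of the exon bases of MDM2, so its counts are uncertain to that extent. Its partner MDM4 was at 78.0 ± 19.6 CPM with ERG and 71.0 ± 17.3 CPM with vector (SD, n = 3 each), and had the reverse order of libraries, with set A highest. PPM1D, the phosphatase that switches the damage response off, was at 21.5 ± 2.86 CPM with ERG and 17.9 ± 1.19 CPM with vector, without passing (log2 0.26, edgeR adjusted p = 0.486). ZMAT3, an RNA-binding p53 target that acts on splicing, had 28.8, 31.5 and 12.3 CPM in ERG libraries and 18.8, 21.4 and 13.6 CPM in vector libraries. Its ERG values lay on either side of the vector values (log2 0.43, SE 0.36, edgeR adjusted p = 0.597).

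PLK3 lies among the 7 genes of cell cycle and growth arrest. It had 20.6, 19.9 and 13.4 CPM in ERG libraries, against 5.99, 7.31 and 7.04 CPM in vector libraries. Every ERG value lay above every vector value, which was true of 12.3% of all tested genes. The mean of 18.0 ± 3.96 CPM with ERG was 2.65-fold that of 6.78 ± 0.701 CPM with vector (SD, n = 3 each; log2 1.41, SE 0.23, edgeR adjusted p = 0.0295). In differences of log2 CPM it was 1.73 higher within set A and 0.89 higher within set B. PLK3 lost its call in 4 of the 6 fits with 1 library left out, at a log2 fold change of 1.295 without ERG replicate 1, 1.33 without ERG replicate 2, 1.46 without vector replicate 2 and 1.44 without vector replicate 3 (edgeR adjusted p = 0.159, 0.162, 0.112 and 0.102). In the order given, those 4 fits called 0, 0, 19 and 51 of all 14203 genes. Summing ERG replicates 1 and 2 to 1 library gave PLK3 a log2 fold change of 1.31 and an edgeR adjusted p of 0.157. That summed fit called 0 of all 14203 genes (1277 at an unadjusted p under 0.05, while DESeq2 with 6 libraries called 1006).

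GENCODE release 29 (hg38) places PLK3 on chromosome 1 between 44800225 and 44805990. The reverse-strand gene DYNLT4 overlaps 2.2% of its exon bases, and no source used here says whether reads were counted by strand. The 250 bases before its RefSeq start site are shown because PLK3 is the gene that rose. The capitals mark GGAAG, which holds the GGAA core that ETS proteins such as ERG bind. GGAA followed by another letter was not marked. The RefSeq start site and the capitals lie inside the GENCODE span given above.
PLK3, chr1:44800127-44800376, plus strand, GRCh38.p14: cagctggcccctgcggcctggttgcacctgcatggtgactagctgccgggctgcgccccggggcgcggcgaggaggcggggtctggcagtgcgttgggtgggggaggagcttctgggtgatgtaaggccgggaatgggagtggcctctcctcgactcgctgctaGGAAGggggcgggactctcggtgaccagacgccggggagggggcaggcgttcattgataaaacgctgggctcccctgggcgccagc
The match is on the gene's strand and begins 86 bases before the start site. On either strand, GGAAG occurs in 65.1% of the 250-base stretches of all 35116 RefSeq promoter windows, so such a match is common and is given as a description of the sequence.

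The other arrest genes did not pass. BTG2, an antiproliferative p53 target, had 10.9, 9.94 and 7.20 CPM in ERG libraries and 29.9, 17.6 and 14.5 CPM in vector libraries. All ERG values lay below all vector values, as in 9.54% of all tested genes (log2 -1.15, SE 0.31, edgeR adjusted p = 0.119). BTG2 passed as lower in DESeq2 (adjusted p = 0.015, where 2.89% of all genes passed as lower). It also passed with a term for library set (edgeR log2 -1.35, adjusted p = 6.7e-04, where 5.96% passed as lower). Because the sets were chosen on these libraries, p-values with that term may be too low. Within set A the log2 CPM difference of BTG2 was -1.51 and within set B -1.13, and without vector replicate 1 its edgeR log2 fold change was -0.78 (adjusted p = 0.134).

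CDKN1A encodes p21, the inhibitor of cyclin-dependent kinases through which p53 stops the cell cycle. It was hardly detected, with 8, 12 and 18 counts in ERG libraries and 25, 10 and 36 counts in vector libraries. That is 0.626, 0.823 and 1.22 CPM with ERG against 2.20, 0.762 and 3.52 CPM with vector, and the groups overlapped (log2 -1.25, SE 0.59, 95% interval -2.62 to 0.13, edgeR adjusted p = 0.359). Per kilobase of exon it was the lowest of the 31 genes in ERG cells at 0.292 CPM, and next to the lowest in vector cells at 0.709 CPM. Without vector replicate 3 its log2 difference was -0.71 and without vector replicate 2 it was -1.66 (edgeR adjusted p = 0.711 and 0.226). At this depth a change of CDKN1A in either direction could not be settled.

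PLK2, a polo-like kinase that p53 can induce, had 3.21, 2.26 and 1.36 CPM in ERG libraries and 3.70, 17.7 and 1.57 CPM in vector libraries. Vector replicate 2 alone held 232 of the 290 vector counts. The log2 fold change of -1.76 (SE 0.83, edgeR adjusted p = 0.359) became -0.22 without that library (adjusted p = 0.924). GADD45A, a stress sensor that binds PCNA and p21, had 170, 167 and 97.1 CPM in ERG libraries and 136, 77.8 and 64.3 CPM in vector libraries. Set A was highest in both groups and the groups overlapped (log2 0.64, SE 0.33, edgeR adjusted p = 0.39). GADD45A passed as higher with the library set term (log2 0.38, edgeR adjusted p = 0.0341, where 7.2% of all genes passed as higher), though not with ERG replicates 1 and 2 also summed (adjusted p = 0.105). Its relative GADD45B stayed near 1 CPM, at 1.13 ± 0.178 with ERG and 0.95 ± 0.354 with vector. CCNG1, cyclin G1, was at 110 ± 11.8 CPM with ERG and 109 ± 48.3 CPM with vector (log2 0.01, 95% interval -0.66 to 0.68).

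**Figure D2:**
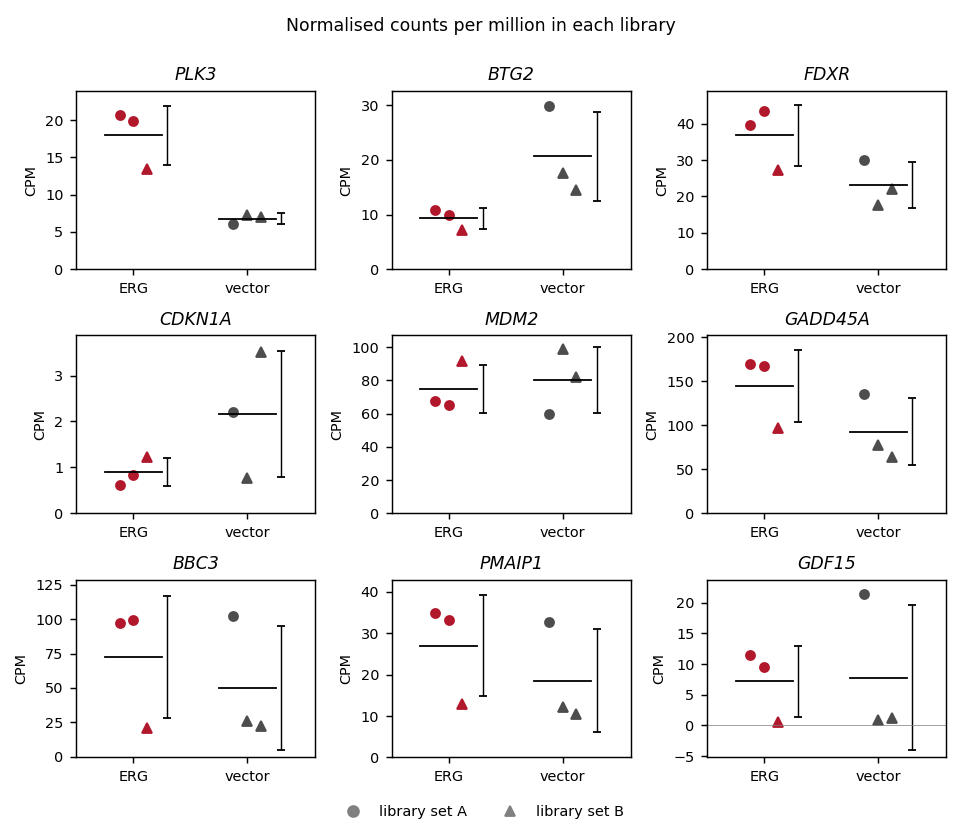
CPM in each library for 9 genes, ERG in red left of vector in grey, with circles for library set A and triangles for set B. Lines are means and bars SD (n = 3). The ERG and vector points separate for PLK3 and BTG2. For BBC3, PMAIP1, GDF15, GADD45A and FDXR the circles lie above the triangles in both groups, and for MDM2 below.

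Of 8 genes of cell death and survival, 0 passed. BBC3, which encodes the BH3-only death protein PUMA, had 96.9, 99.4 and 21.3 CPM in ERG libraries and 102, 26.0 and 22.4 CPM in vector libraries. Each group held low and high libraries, and the 3 high values were those of set A (log2 0.53, SE 0.72, edgeR adjusted p = 0.747). The log2 difference of BBC3 was 1.58 without vector replicate 1 and -0.12 with the set term (edgeR adjusted p = 0.197 and 0.489). PMAIP1, which encodes the BH3-only protein NOXA, followed the same order, with 34.8, 33.3 and 12.9 CPM in ERG libraries and 32.8, 12.3 and 10.5 CPM in vector libraries (log2 0.54, SE 0.52, edgeR adjusted p = 0.645). That of PMAIP1 was 1.24 without vector replicate 1 and 0.11 with the set term (edgeR adjusted p = 0.166 and 0.618). AEN, an apoptosis-enhancing nuclease, ran the other way, with 27.5, 25.3 and 53.4 CPM in ERG libraries and 26.6, 61.9 and 70.3 CPM in vector libraries. Its 3 low values were those of set A (log2 -0.58, SE 0.41, edgeR adjusted p = 0.538). TRIAP1, a small inhibitor of apoptosis, was also lowest in set A, with 27.6, 27.4 and 47.3 CPM in ERG libraries and 33.98, 51.0 and 49.1 CPM in vector libraries (log2 -0.39, SE 0.26, edgeR adjusted p = 0.515). BAX, the pore-forming death protein, was at 78.8 ± 13.6 CPM with ERG and 88.1 ± 2.49 CPM with vector, with a 95% interval of the log2 difference from -0.51 to 0.19. The death receptor gene TNFRSF10B, the oxidoreductase gene TP53I3 and the autophagy and death gene TP53INP1 had log2 differences of -0.17, 0.17 and -0.26. The 95% intervals of these 3 all included 0, and that of TP53INP1 was the widest, from -1.35 to 0.83.

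The 4 genes of repair and nucleotide supply all had small positive log2 differences, and 0 passed. DDB2, which finds ultraviolet damage, was at 15.2 ± 0.765 CPM with ERG and 13.1 ± 2.14 CPM with vector (log2 0.22, 95% interval -0.21 to 0.66). POLH, a polymerase that copies past damaged bases, was at 23.5 ± 1.82 CPM with ERG and 20.5 ± 1.34 CPM with vector (log2 0.20, 95% interval -0.15 to 0.54). RRM2B, the p53-inducible subunit of ribonucleotide reductase, had a log2 difference of 0.15 and XPC, the damage recognition protein of nucleotide excision repair, of 0.10. Other genes overlap 39.0% of the exon bases of XPC, all on the reverse strand, so its counts are uncertain.

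Among the genes of metabolism and secretion, 0 of 3 passed. FDXR, a mitochondrial reductase that p53 induces, had 39.6, 43.5 and 27.4 CPM in ERG libraries and 30.0, 17.5 and 22.1 CPM in vector libraries. ERG replicate 3 lay below vector replicate 1, so the groups overlapped (1.59-fold, log2 0.67, SE 0.25, 95% interval 0.07 to 1.26, edgeR adjusted p = 0.26). All 3 libraries of set A lay above all 3 of set B, as for 20.4% of all tested genes, with a set difference of 0.76 in log2 CPM. Within set A the log2 CPM difference of FDXR between ERG and vector was 0.47 and within set B also 0.47. With the library set term it passed as higher (edgeR adjusted p = 0.0404), but not with ERG replicates 1 and 2 also summed (0.119). SESN1, an inhibitor of growth signalling, was at 29.7 ± 1.32 CPM with ERG and 30.1 ± 2.21 CPM with vector (log2 -0.02, 95% interval -0.34 to 0.29). GDF15, a secreted stress cytokine, had 11.5, 9.46 and 0.611 CPM in ERG libraries and 21.4, 0.838 and 1.17 CPM in vector libraries. The values of set A were all above 9 CPM and those of set B all near 1 CPM, in both groups (log2 -0.12, SE 1.28, edgeR adjusted p = 0.972). Without vector replicate 1, the vector library of set A, the fitted log2 difference was 2.84 (edgeR adjusted p = 0.202). Adding the set term gave -0.95 (edgeR adjusted p = 0.0288), and 0.122 as the adjusted p when ERG replicates 1 and 2 were also summed.

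Promoter windows were searched for the letters of the p53 consensus. RefSeq promoter windows (GRCh38.p14, 250 bases before to 50 after the start) were matched for 29 of the 34 genes, in 43 windows. The p53 consensus unit, which occurs as a pair in a p53 response element, was in 6 of the 43 windows (14.0%), each of another gene, and in 6.63% of all 35116 windows. The pair with up to 13 bases between its units was in a window of 1 gene, DDB2, and in 10 windows of all (0.0285%). The 5 genes with a match that were also measured are shown so that the letters can be compared, with the units in capitals, each on the gene's strand. For SESN1 the start site lies inside the gene, and the window at its outer start held no unit.
DDB2, chr11:47214979-47214999, plus strand, pair beginning 5 bases after the start site: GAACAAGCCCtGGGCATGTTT
FDXR, chr17:74872986-74873015, minus strand, unit beginning 11 bases before it: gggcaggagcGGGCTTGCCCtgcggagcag
AEN, chr15:88621296-88621325, plus strand, unit beginning 34 bases before it: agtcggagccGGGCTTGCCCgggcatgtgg
SESN1, chr6:109009018-109009047, minus strand, unit beginning 49 bases before it: attgtcgtctGGACAAGTCTccacaagtca
PLK2, chr5:58460199-58460228, minus strand, unit beginning 132 bases before it: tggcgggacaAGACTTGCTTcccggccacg
FDXR and AEN hold the same 10 letters, and their log2 fold changes were 0.67 and -0.58, neither past the test. DDB2, with the full pair, differed by 0.22. No match in a window says only that these letters are not in that window.

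**Figure D3:**
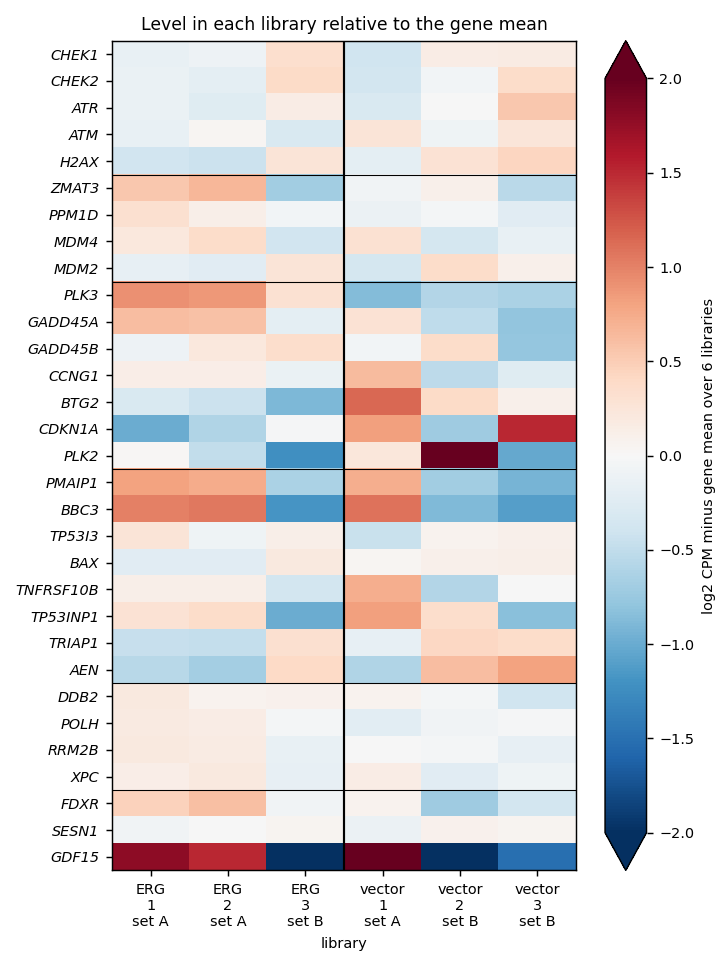
Log2 CPM of the 31 genes minus each gene's mean over the 6 libraries, ERG libraries left of vector libraries, with horizontal lines between roles and colour running from -2 (blue) to 2 (red). GDF15, BBC3 and PMAIP1 are red in ERG replicates 1 and 2 and vector replicate 1 and blue in the other 3 libraries, and PLK3 is red in the 3 ERG libraries.

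For most of these genes the libraries differed more between sets A and B than between ERG and vector. Set differences were taken in mean log2 CPM and those between ERG and vector as edgeR log2 fold changes, which are unlike measures. The difference between sets was the larger in size for 23 of the 31 genes (74.2%), against 61.0% of all tested genes. The sets were made from all genes, these included, so the values are a description with no test. All 3 libraries of set A lay above all 3 of set B for 10 of the 31 genes and below for 9, that is 19 of 31 or 61.3%. Among all tested genes 43% were so separated, 20.4% above and 22.6% below. The largest differences in log2 CPM, set A minus set B, were 3.74 for GDF15, 2.10 for BBC3, 1.495 for PMAIP1 and -1.21 for AEN. Of the 5 genes of damage sensing, ATR, CHEK1, CHEK2 and H2AX were lower in every library of set A than in any of set B, by 0.43 to 0.66.

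The 5 members that are also known as ATF4 or CHOP targets, PMAIP1, BBC3, GDF15, TNFRSF10B and GADD45A, all lay higher in each library of set A than in any of set B, with a median log2 difference of 1.495. Of the 26 other members, 5 lay wholly above and 9 wholly below, with a median of 0.05. Among 10 ATF4 and CHOP pathway genes, all 10 lay wholly above, with a median of 2.62. Of all tested genes 20.4% lay wholly above and 22.6% wholly below, with a median of 0.02. The sets were made from all genes, these included. The lists were chosen with earlier results of these data known, so the values are a description with no test. Between ERG and vector the 10 ATF4 and CHOP pathway genes had a median log2 fold change of 0.43. All 10 values were positive, against 6941 of all 14203 tested genes. Of these 10 pathway genes 0 passed in either direction, where 2.2% of all tested genes did. Set A holds 2 of the 3 ERG libraries and 1 of the 3 vector libraries. Within set A the median log2 CPM difference, ERG minus vector, was -0.19, with 6 of 10 negative, against 7088 of all 14203 tested genes. Within set B it was -0.28, with 8 of 10 negative, against 6692 of all tested genes. In each set 1 of the groups had 1 library, and these differences were not tested. ATF4 itself had 770, 743 and 406 CPM in ERG libraries and 860, 397 and 394 CPM in vector libraries. DDIT4, an inhibitor of growth signalling, had 480, 468 and 74.1 CPM in ERG libraries and 715, 115 and 79.7 CPM in vector libraries. Both were high in the libraries of set A, and the part of the stress response in the levels of the p53 targets was not tested.

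**Figure D4:**
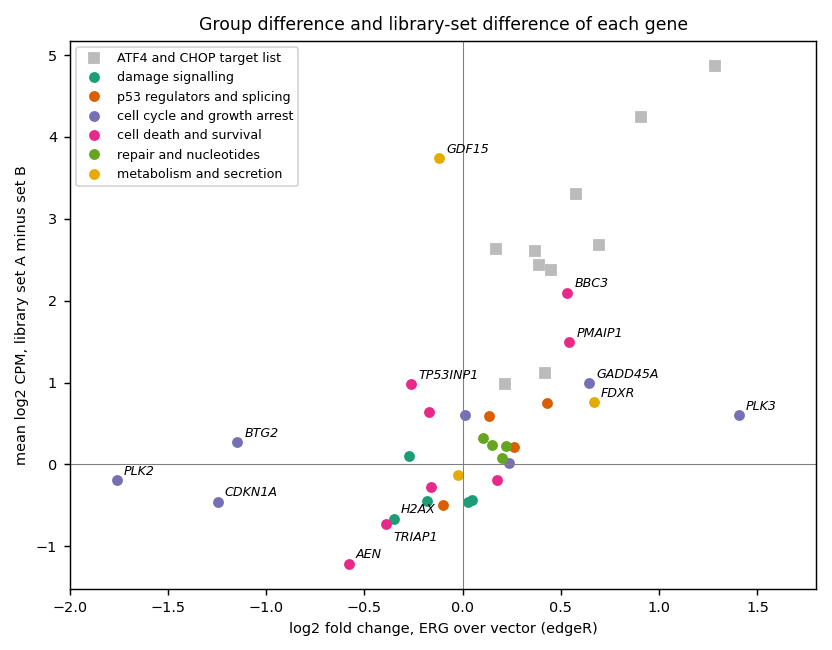
For each of the 31 genes, coloured by role, the edgeR log2 fold change of ERG over vector (horizontal) and the mean log2 CPM of library set A minus set B (vertical), with grey squares for the 10 ATF4 and CHOP pathway genes. PLK3 lies far right at 1.41 with a set difference of 0.60, and GDF15 lies near 0 on the horizontal axis at 3.74 on the vertical.

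Further genes of the pathway were read from lists of known targets. These lists were chosen with earlier results of these data known, so their shares beside those of all genes are a description with no test. Of 40 other p53 targets and regulators 31 were tested, of which 1 rose and 1 fell, or 6.45% against 2.2% of all tested genes (median log2 0.09, 20 positive and 11 negative values). At an unadjusted p under 0.05 it was 11 of 31 (35.5%), against 15.9% of all tested genes. ERG and vector values did not overlap for 11 of 31, with ERG above for 6 and below for 5, against 21.9% of all tested genes. CYFIP2, an actin regulator and p53 target, had 41.7, 48.7 and 44.7 CPM in ERG libraries and 24.0, 12.6 and 19.1 CPM in vector libraries (2.42-fold, log2 1.28, SE 0.24, edgeR adjusted p = 0.0423). DRAM1, a lysosomal p53 target that promotes autophagy, had 16.6, 15.8 and 14.1 CPM in ERG libraries and 27.7, 32.1 and 24.6 CPM in vector libraries (log2 -0.86, SE 0.17, edgeR adjusted p = 0.0493). For both genes the ERG and vector values did not overlap. In 5-library fits DRAM1 passed in 0 of 6 and CYFIP2 only without vector replicate 1. Those fits called 0 of all 14203 genes without ERG replicate 1 or 2, 19 without vector replicate 2 and 51 without vector replicate 3. Without ERG replicate 3 they called 441, and without vector replicate 1 also 441.

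Of 49 tested DNA repair and checkpoint genes, 0 rose and 0 fell at an edgeR adjusted p under 0.05, and 0 had an unadjusted p under 0.05 (median log2 -0.04). Among all tested genes edgeR called 2.2%, and 15.9% had an unadjusted p under 0.05. DESeq2 also called 0 of the 49 repair and checkpoint genes, against 7.08% of all tested genes. Per kilobase of exon the highest of the 49 was XRCC6, the DNA end-binding protein Ku70, at 156 CPM per kilobase with ERG and 189 with vector. Its partner XRCC5, or Ku80, followed at 79.2 CPM per kilobase with ERG and 78.8 with vector. All 3 libraries of set A lay below all of set B for 23 of the 49 and above for 4, with a median set difference of -0.30. Among all tested genes 22.6% lay below and 20.4% above. Of 12 mitotic genes that p53 lowers through p21 and the DREAM repressor complex, 0 passed by edgeR and 0 by DESeq2. At an unadjusted edgeR p under 0.05 it was 1 of 12, or 8.33%, against 15.9% of all tested genes. The 1 gene was TOP2A, the mitotic topoisomerase, at 206 ± 19.1 CPM with ERG and 158 ± 9.86 CPM with vector (log2 0.38, edgeR adjusted p = 0.221). BIRC5, the survival protein survivin, was at 237 ± 53.6 CPM with ERG and 244 ± 49.8 CPM with vector.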

How the data were processed

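The deposited table holds whole-number read counts per gene, although its name speaks of CPM, since the column totals differ between libraries. The submitters' processing notes name the build hg38 and edgeR 3.32.1. The aligner, counter, annotation and strand setting are not given in the sources used here. The control columns carry another word than the titles and were taken as vector, there being no other group. No column was left over (0). The members and lists were chosen with earlier results of these data known. From the deposited counts, edgeR 4.0.16 (R 4.3.3) with TMM factors and its two-sided quasi-likelihood test was fitted to the 14203 genes with at least 1 CPM in 3 of 6 libraries, with Benjamini-Hochberg adjustment over all of them and a threshold of 0.05. All 31 members with a row were tested. SE is the log2 fold change divided by the square root of F. Differences within and between library sets use log2 CPM, computed at a prior count of 2. The sets came from average-linkage clustering on 1 minus the correlation of log2 CPM. Levels between genes are compared as CPM per kilobase of merged GENCODE release 29 exons. Genes given in full were those past the threshold, the 12 largest changes among the members, and CDKN1A, MDM2, H2AX and ERG, while 1 further gene of that rule is not reported here. Alternatives used DESeq2 1.42.0, limma 3.58.1, other factors and filters, block and set terms, and left-out libraries. The procedure was tested on simulated counts of independent libraries. They held no library sets and no replicates made closer than others, so that test does not cover these features of the data.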

Additional observations from a re-analysis of the deposited data

How the results depend on the processing

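CDKN1A, PLK2 and GADD45B were left out by the filter at 5 CPM, which kept 28 members. The depth limits what can be said of genes with few counts, such as CDKN1A and GADD45B. The count of 1 member higher and 0 lower held with limma, RLE and upper quartile factors, no filter on low counts and a filter at 5 CPM. It was 1 and 1 with DESeq2 and with a replicate block, 3 and 2 with the library set term (PLK3, FDXR and GADD45A higher, BTG2 and GDF15 lower), 1 and 1 with that term and ERG replicates 1 and 2 summed (an alternative added after seeing the data), and 0 and 0 with these summed alone. Without 1 replicate 0 to 1 members were higher and 0 lower. The cause was not tested.

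Over all tested genes, higher and lower calls numbered 596 and 410 with DESeq2, 582 and 323 with the replicate block, 1022 and 847 with the set term, 574 and 427 with the set term and summed libraries, and 0 and 0 with summed libraries. They ranged from 0 to 309 higher and from 0 to 139 lower without 1 replicate, with 0 calls in all without ERG replicate 1 or ERG replicate 2, 19 without vector replicate 2 and 51 without vector replicate 3. Among the other p53 targets, 3 and 2 were called with DESeq2, 3 and 1 with the block, 5 and 4 with the set term, 3 and 2 with the set term and summed libraries, 0 and 0 with summed libraries, 1 and 0 with upper quartile factors or the 5 CPM filter, and 0 to 2 and 0 without 1 replicate. The set term called 1 repair gene (MDC1) and 1 mitotic gene (TOP2A) higher and 2 ATF4 pathway genes (TRIB3 and DDIT4) lower. The log2 fold change of ERG was 2.23 with summed libraries (edgeR adjusted p = 0.0738) and 2.01 to 2.46 without 1 replicate.

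The members whose sign changed had not passed in the edgeR fit without further terms, though GDF15 passed as lower with the set term. With the set term, and then with summed libraries too, the log2 values were 0.087 and 0.077 for MDM2, -0.075 and -0.081 for MDM4, -0.131 and -0.073 for CCNG1, -0.117 and -0.127 for BBC3, -0.0031 and -0.0047 for XPC, and 0.026 and 0.021 for SESN1. CCNG1 was at -0.035 with summed libraries alone, SESN1 at 0.016 with upper quartile factors and 0.0051 with the 5 CPM filter, and GDF15 at 0.53 with limma and 0.47 with the replicate block. Without 1 replicate the ranges were -0.35 to 0.084 for ATR, -0.12 to 0.15 for CHEK1, -0.17 to 0.25 for CHEK2, -0.27 to 0.080 for MDM2, -0.017 to 0.35 for MDM4, -0.21 to 0.43 for CCNG1, -0.43 to 0.25 for TNFRSF10B, -0.600 to 0.12 for TP53INP1, -0.080 to 0.020 for SESN1 and -0.66 to 2.84 for GDF15.

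The labels do not say whether libraries of the same replicate number were paired. Deviations from the group means of same-numbered libraries correlated at 0.63, -0.28 and 0.59 across genes for replicates 1, 2 and 3. Both libraries of replicate 1 are in set A and both of replicate 3 in set B, while those of replicate 2 are split. Pairing and library set therefore cannot be told apart here. The block moved all calls from 313 to 905, let BTG2 pass (edgeR adjusted p = 0.0166) and is given only as an alternative.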
